A study of Homo sapiens with 12 samples.

Results

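Genes of glycolysis, the pentose phosphate pathway and the hypoxia response were followed in OCI-Ly7 and Pfeiffer, 2 human lines of diffuse large B-cell lymphoma, with and without siRNA against BCL6. The set was a list of 39 genes. A gene was found when the array's probe table gave at least 1 probe set that symbol alone, and its brightest such probe set over the 12 arrays stood for it. Of the 39 genes 37 were found, out of 19775 genes so named in the whole series. SLC16A1 and SLC16A3, lactate transporters, were not analysed here. The 37 genes had 82 probe sets, and 24 genes had more than 1.

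OCI-Ly7 and Pfeiffer are lymphoma lines of the germinal centre B-cell type, grown in IMDM medium with serum. Cells of either line were transfected with an siRNA against BCL6, which encodes a repressor of transcription in the germinal centre, or with a non-target control oligonucleotide. Total RNA was taken 48 h later and hybridised to Affymetrix U133 Plus 2.0 arrays, 3 per group. The 4 groups are OCI-Ly7 control (titled NTsiRNA), OCI-Ly7 BCL6 siRNA, Pfeiffer control and Pfeiffer BCL6 siRNA. The Pfeiffer controls are titled NTshRNA but described as siRNA. All groups had been transfected, so no untreated cells were measured. Each line stands for 1 tumour. Whether replicate arrays stem from separate cultures is not stated, so the p-values cover the spread of these arrays alone, and that spread may be technical. Oxygen, glucose and cell density at harvest are not given in the labels.

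Glycolysis splits glucose into pyruvate, which is reduced to lactate or burned in mitochondria, and the pentose phosphate pathway branches off to make NADPH and ribose. Hypoxia-inducible factor 1, whose alpha subunit is encoded by HIF1A, is destroyed in oxygen after the prolyl hydroxylases EGLN1 and EGLN3 mark it. When it is stable it raises transcription of glucose transporters, most glycolytic enzymes and genes such as BNIP3, ADM and VEGFA. EGLN1 and EGLN3 are themselves among its targets.

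All levels are log2(signal + 16), where signal is the deposited array signal on the linear scale, and changes and differences are on that scale too, so 1 unit is a factor of 2 for a bright gene. A gene is called when its p-value in limma, adjusted by Benjamini-Hochberg over all 9888 genes tested, is under 0.05. SE stands for the moderated standard error of limma. The genes tested were the upper 0.5 by the brighter line, and 36 of the 37 passed. EGLN3 did not. It read 4.95 to 6.13 on the 12 arrays, below the lowest level kept (7.91). SLC2A3 passed only through OCI-Ly7, since its mean was 8.64 there and 5.61 in Pfeiffer. Levels are not compared between genes, because each probe set binds with its own strength.

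The siRNA left 74.6% of the BCL6 signal in OCI-Ly7 and 51.3% in Pfeiffer (limma, adjusted p = 0.00731 and 5.31e-07). The 7 B cell markers found read 8.1 to 14.66 as group means. The T cell markers CD3D, CD3E, CD2 and CD5 and all 4 myeloid markers found had group means below the lowest level kept. In Pfeiffer controls CD8A, a T cell coreceptor chain, read 13.57 and EPCAM, an epithelial adhesion molecule, 14.06, against 4.67 and 5.00 in OCI-Ly7 controls. Of the other epithelial and stromal markers, KRT8 and DCN had group means below the lowest level kept. KRT18 read 8.66 and COL1A1 8.40 in Pfeiffer controls, against 6.78 and 7.92 in OCI-Ly7 controls. Pfeiffer siRNA replicate 3 stood apart in the ratio of 3' to 5' GAPDH signal (log2 ratio -0.027, against -0.149 to -0.094 on the other 11 arrays). Counts without it are given below. The same log2 ratio for ACTB kept the lines apart, at 0.109 to 0.201 on the OCI-Ly7 arrays and 0.278 to 0.388 on those of Pfeiffer. It was highest on Pfeiffer siRNA replicate 3. The part of this in differences between the lines was not tested. In RNA from whole cultures, fewer cells of a kind and less RNA per cell cannot be told apart.

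5 of the genes are shown first by promoter: PFKFB4, PGK1, ENO1, PDK1 and BNIP3. Each was called higher in Pfeiffer after BCL6 siRNA and had a promoter in the RefSeq table (GRCh38.p14). The sixth gene called higher was NDRG1. The share of the set called in that comparison (16.7%) is close to that of all genes (16.2%), and a joint rise was not tested. Each window runs from 250 bases before to 50 after the gene's start, read 5′ to 3′ on the gene's strand. Capitals mark the core of the hypoxia response element, searched as ACGTG or GCGTG on both strands (CACGT or CACGC when read on the other). A palindrome CACGTG counts on both strands. PFKFB4 is at chr3:48556754-48557053 (minus strand), PGK1 at chrX:78103998-78104297 (plus), ENO1 at chr1:8878637-8878936 (minus), PDK1 at chr2:172555123-172555422 (plus) and BNIP3 at chr10:131981874-131982173 (minus).
PFKFB4: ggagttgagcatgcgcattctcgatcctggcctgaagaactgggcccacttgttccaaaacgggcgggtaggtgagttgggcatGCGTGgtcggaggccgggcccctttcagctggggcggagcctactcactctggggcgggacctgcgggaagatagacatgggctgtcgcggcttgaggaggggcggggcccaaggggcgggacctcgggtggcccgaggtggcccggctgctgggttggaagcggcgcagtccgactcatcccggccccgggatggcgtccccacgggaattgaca
PGK1: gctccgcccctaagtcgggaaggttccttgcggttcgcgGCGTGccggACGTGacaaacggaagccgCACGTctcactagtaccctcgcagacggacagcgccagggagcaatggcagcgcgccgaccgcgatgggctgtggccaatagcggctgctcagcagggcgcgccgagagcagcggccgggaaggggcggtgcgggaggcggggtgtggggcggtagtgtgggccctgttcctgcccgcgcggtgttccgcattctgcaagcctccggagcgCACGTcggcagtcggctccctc
ENO1: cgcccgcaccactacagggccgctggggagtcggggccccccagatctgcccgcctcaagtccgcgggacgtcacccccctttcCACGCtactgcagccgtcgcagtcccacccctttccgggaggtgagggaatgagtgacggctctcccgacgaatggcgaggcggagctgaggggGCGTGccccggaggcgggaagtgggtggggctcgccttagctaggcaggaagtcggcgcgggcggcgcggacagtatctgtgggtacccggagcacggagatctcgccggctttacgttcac
PDK1: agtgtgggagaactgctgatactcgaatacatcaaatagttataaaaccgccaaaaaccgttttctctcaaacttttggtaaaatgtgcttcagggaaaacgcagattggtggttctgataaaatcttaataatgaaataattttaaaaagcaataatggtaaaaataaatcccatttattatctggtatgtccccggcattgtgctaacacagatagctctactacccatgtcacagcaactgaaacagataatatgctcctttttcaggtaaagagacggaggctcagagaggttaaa
BNIP3: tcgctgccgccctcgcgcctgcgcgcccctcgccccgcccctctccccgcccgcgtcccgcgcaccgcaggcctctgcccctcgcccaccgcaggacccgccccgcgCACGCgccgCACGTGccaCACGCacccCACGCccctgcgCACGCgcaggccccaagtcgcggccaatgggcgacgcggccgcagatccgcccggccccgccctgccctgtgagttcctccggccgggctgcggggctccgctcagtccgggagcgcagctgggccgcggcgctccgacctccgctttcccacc
The window held 1 match for PFKFB4, 4 for PGK1, 2 for ENO1, 0 for PDK1 and 6 for BNIP3. In PGK1 matches began 211, 202 and 183 bases before the start, and in BNIP3 all lay between 143 and 104 bases before it. Of the 33 genes of the set with a promoter there, 24 held a match (72.7%), against 48.4% of all 35116 promoters. Those promoters were not limited to the genes tested, nor matched in base composition, so these shares are not read as enrichment. Of the 5 shown 4 held one, and so did 20 of the 27 uncalled in Pfeiffer (74.1%). A match is a description of the letters, not of binding.

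In control cells, the hypoxia response genes of the set and several glycolytic isoenzymes were lower in Pfeiffer than in OCI-Ly7. Of the 36 genes tested 22 were lower in Pfeiffer, 5 higher and 9 uncalled. The 2 lines differ in most genes: limma called 79.6% of the 9888, 37.1% lower and 42.5% higher in Pfeiffer, so the share called in the set (75%) is near the background. The split by direction was 61.1% lower and 13.9% higher in the set. Control arrays of the lines did not overlap for 28 of the 36 genes, 22 lower and 6 higher in Pfeiffer, against 82.4% of all genes (38.4% lower and 44% higher). The median difference was -0.56, beside 0.07 over all genes tested. Without SLC2A3, which passed the filter only through OCI-Ly7, 21 of 35 were lower and 5 higher. Line, culture and everything else that differs between the 2 sets of flasks cannot be told apart here.

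**Figure D1:**
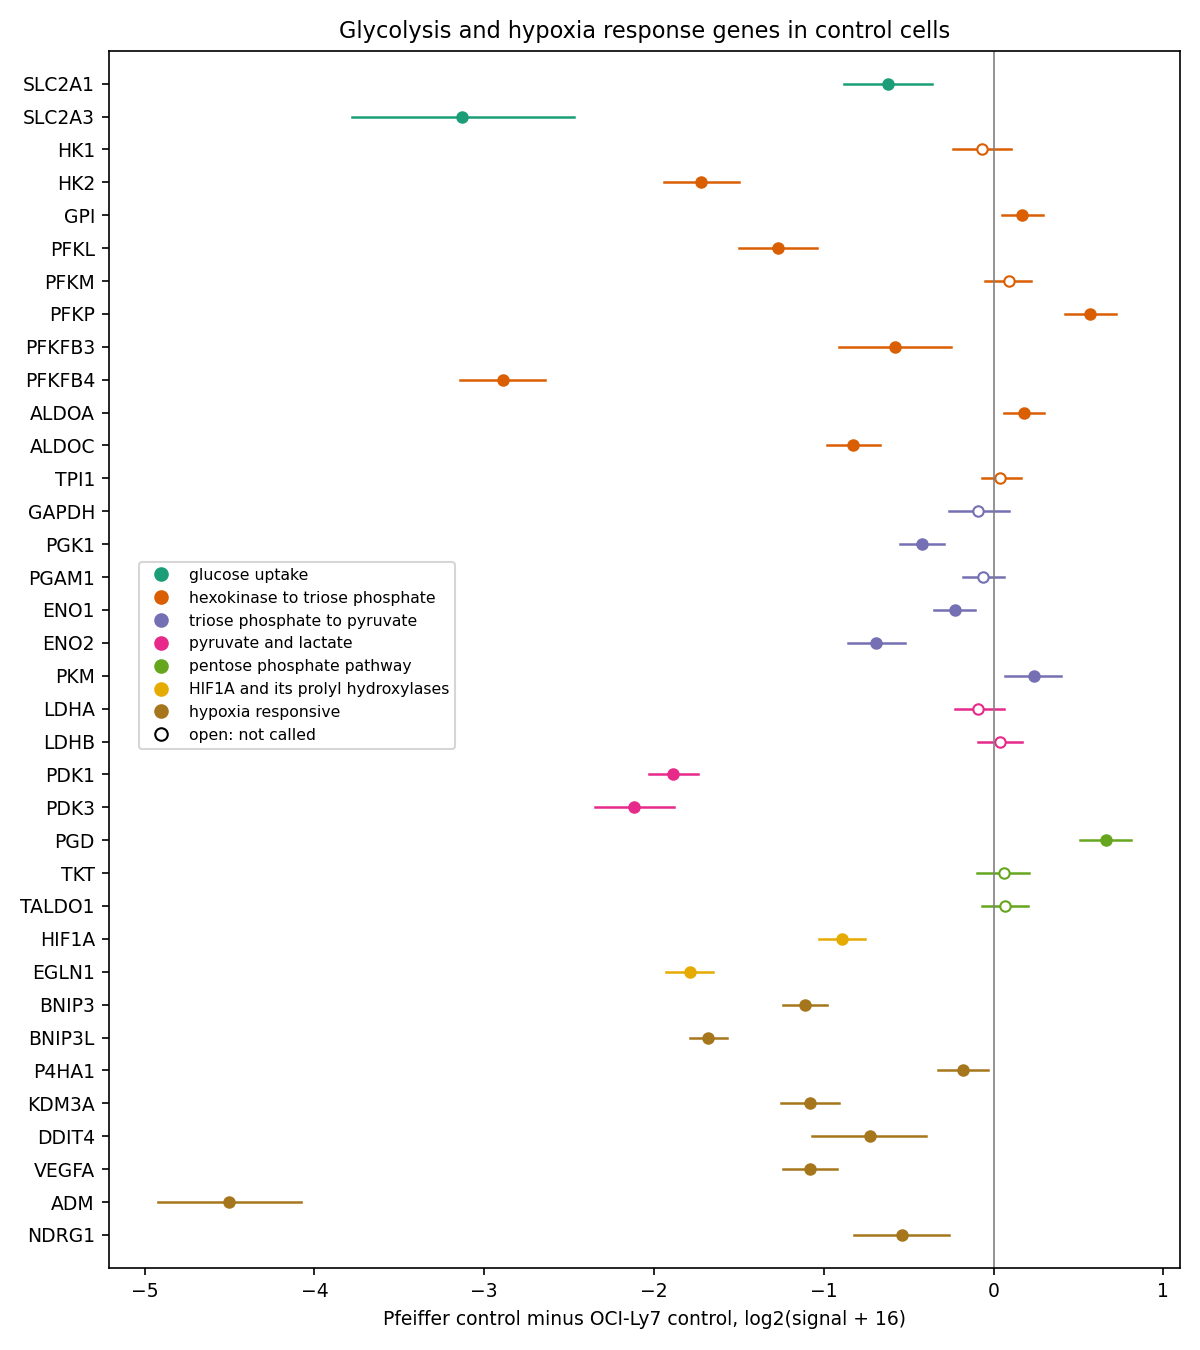
Difference between control cells of the lines for each of the 36 genes tested, Pfeiffer minus OCI-Ly7 in log2(signal + 16), with 95% confidence intervals from limma (3 arrays per group). Colours mark the role of the gene and filled points the calls; all 8 hypoxia responsive genes lie left of 0, from -4.5 for ADM to -0.18 for P4HA1.

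HIF1A itself was lower in Pfeiffer. Its control arrays read 12.88, 12.82 and 12.78 in OCI-Ly7 and 11.91, 12.01 and 11.87 in Pfeiffer, with no overlap. The difference was -0.89 ± 0.06 (SE), or 1.86-fold lower (limma, adjusted p = 4.11e-09). EGLN1, the main oxygen sensor among the hydroxylases, read 12.57, 12.48 and 12.58 in OCI-Ly7 and 10.74, 10.76 and 10.77 in Pfeiffer. It was 3.45-fold lower in Pfeiffer (-1.79 ± 0.07, adjusted p = 1.56e-12), and its 3 tested probe sets were all called lower. EGLN3 was dim in both lines, at 5.27 to 5.96 on the OCI-Ly7 control arrays and 4.95 to 5.94 on those of Pfeiffer, and the groups overlapped.

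All 8 hypoxia responsive genes of the set were lower in Pfeiffer controls, but a wider list was mixed. Of 22 other hypoxia responsive genes tested 11 were lower in Pfeiffer and 6 higher (median -0.16, beside 0.07 over all genes). At the ends of that list, named after their values were seen, TXNIP stood at -5.93, AK4 at 4.81 and BHLHE40 at 4.98. No p-value is given for genes picked in this way. Whether genes of that list passed the filter through 1 line alone was not checked. ADM, which encodes the vasodilator peptide adrenomedullin, read 12.72, 12.60 and 12.74 in OCI-Ly7 and 8.50, 7.95 and 8.11 in Pfeiffer. That is 22.6-fold lower (-4.50 ± 0.20 SE; limma, adjusted p = 1.14e-11), the largest difference in the set. BNIP3L, a mitophagy receptor, read 13.55, 13.51 and 13.63 against 11.86, 11.86 and 11.94 (-1.68 ± 0.05, adjusted p = 1.76e-13). Its relative BNIP3 differed by -1.11 ± 0.06 (adjusted p = 1.39e-10), and the second probe set of each gene was called lower too. The angiogenic factor VEGFA stood at -1.08 with all 4 probe sets called lower, and KDM3A, a histone demethylase that needs oxygen, at -1.08. DDIT4, an inhibitor of mTOR, stood at -0.73 (adjusted p = 0.000536) and NDRG1, a stress-induced gene, at -0.54 (adjusted p = 0.00152). P4HA1, a collagen prolyl hydroxylase subunit, was the nearest to even at -0.18 (adjusted p = 0.0286). Its groups overlapped, and its call was lost without OCI-Ly7 control replicate 1 or 3 or Pfeiffer control replicate 2 or 3 (adjusted p up to 0.154).

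Among the glucose transporters SLC2A1 RNA was lower in Pfeiffer too. The widely expressed transporter SLC2A1 (GLUT1) read 9.72, 9.98 and 9.79 in OCI-Ly7 controls and 8.96, 9.29 and 9.40 in Pfeiffer controls (-0.62 ± 0.12 SE; limma, adjusted p = 0.000264). The mean of its probe sets was -0.76 and uncalled (adjusted p = 0.0551). SLC2A3 (GLUT3), a transporter of high affinity, read 8.71, 8.95 and 8.76 against 5.44, 5.80 and 5.79 (-3.13 ± 0.31). It lay below the lowest level kept in Pfeiffer, where MAS5 signals are noisy. Because it passed the filter only through OCI-Ly7, a lower value in Pfeiffer was favoured beforehand, and its call is not taken as support.

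From hexokinase to triose phosphate, the isoenzymes of a step differed unequally. HK2, the inducible hexokinase, read 11.40, 11.13 and 11.30 in OCI-Ly7 controls and 9.42, 9.55 and 9.71 in Pfeiffer controls (-1.72 ± 0.10 SE; limma, adjusted p = 4.37e-10). The housekeeping hexokinase HK1 differed by -0.07 (95% confidence interval -0.24 to 0.10, adjusted p = 0.431). The 2 dimmer HK2 probe sets went the other way, at 0.39 (uncalled) and 1.12 (called higher), and the mean of all HK2 probe sets was -0.07 (adjusted p = 0.706). Of the phosphofructokinase subunits, the liver type PFKL was lower in Pfeiffer (-1.27 ± 0.11, adjusted p = 2.71e-08), the platelet type PFKP higher (0.57 ± 0.07, adjusted p = 1.56e-06) and the muscle type PFKM uncalled (0.09, interval -0.05 to 0.22).

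PFKFB3 and PFKFB4 make and degrade fructose 2,6-bisphosphate, the activator of phosphofructokinase. PFKFB4 read 12.41, 12.21 and 12.59 in OCI-Ly7 controls and 9.54, 9.47 and 9.53 in Pfeiffer controls, 7.4-fold lower (-2.89 ± 0.12 SE; limma, adjusted p = 4.76e-12). PFKFB3 differed by -0.58 ± 0.16 (adjusted p = 0.00299). Aldolase C (ALDOC) was lower in Pfeiffer (-0.83 ± 0.07, adjusted p = 4.45e-08), while aldolase A (ALDOA), the main form in blood cells, was slightly higher (0.18, adjusted p = 0.0101), as was the isomerase GPI (0.17, adjusted p = 0.0123). The ALDOA call was lost without Pfeiffer control replicate 3 (adjusted p = 0.0596). The GPI call was lost without that array or OCI-Ly7 control replicate 1, and with quantile normalization (0.05, adjusted p = 0.329). TPI1, which interconverts the triose phosphates, was uncalled (0.04, interval -0.07 to 0.16).

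From triose phosphate to pyruvate 3 enzymes were lower in Pfeiffer, 1 higher and 2 uncalled. GAPDH stood at -0.09 (interval -0.26 to 0.09) and PGAM1, phosphoglycerate mutase, at -0.06 (interval -0.18 to 0.06). PGK1, phosphoglycerate kinase, was lower in Pfeiffer (-0.42 ± 0.06 SE; limma, adjusted p = 1.37e-05), and 5 of its 6 probe sets were called lower. The enolases ENO1 (-0.23, adjusted p = 0.00143) and ENO2 (-0.69, adjusted p = 9.95e-07) were lower too. PKM, pyruvate kinase, was called higher (0.24, adjusted p = 0.0113), but its second probe set was called lower (-0.90) and the mean of both was -0.33. The PKM call was also lost without Pfeiffer control replicate 3 (adjusted p = 0.0741) and with quantile normalization.

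At pyruvate, the kinases that switch off pyruvate dehydrogenase were lower in Pfeiffer and the lactate dehydrogenases were uncalled. PDK1 read 12.34, 12.39 and 12.40 in OCI-Ly7 controls and 10.61, 10.51 and 10.35 in Pfeiffer controls, 3.7-fold lower (-1.89 ± 0.07 SE; limma, adjusted p = 1.3e-12). PDK3 was 4.34-fold lower (-2.12 ± 0.11, adjusted p = 9.39e-11). All 3 probe sets of PDK1 and all 5 of PDK3 were called lower. LDHA, the muscle-type subunit, stood at -0.09 (interval -0.23 to 0.06) and LDHB, the heart-type subunit, at 0.04 (interval -0.09 to 0.17), although the second LDHB probe set was called higher (0.23).

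The pentose phosphate enzymes had no member called lower. PGD, which makes NADPH from 6-phosphogluconate, read 11.76, 11.98 and 11.98 in OCI-Ly7 controls and 12.63, 12.60 and 12.48 in Pfeiffer controls (0.66 ± 0.07 SE; limma, adjusted p = 4.71e-07). Its 2 other probe sets were too dim to test, and the mean of all 3 stood at 0.27 (adjusted p = 0.27). Transketolase (TKT) stood at 0.06 (interval -0.10 to 0.21) and transaldolase (TALDO1) at 0.07 (interval -0.07 to 0.20).

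Among the 27 genes called between the controls, 14 had several probe sets that could be tested. In 12 of these all tested probe sets had the same sign, and HK2 and PKM were the exceptions. With quantile normalization, which moved the median difference of all genes from 0.065 to 0.103, 23 genes of the set were lower and 4 higher.

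To set isoenzymes against each other without comparing levels between probe sets, the log2 ratio of 2 isoenzymes was taken within each array and compared between groups. For 10 pairs and 3 comparisons this made 30 exact two-sided permutation tests. With 3 arrays against 3 the smallest p they allow is 0.1, and after adjustment the smallest was 0.167, so none can pass 0.05. The HK2 to HK1 ratio was 0.05 ± 0.15 (SD, n = 3) in OCI-Ly7 controls and -1.60 ± 0.13 in Pfeiffer controls, a 3.13-fold shift away from HK2 (exact p = 0.1). That shift rests on the brightest HK2 probe set. The dimmer ones differed by 0.39 and 1.12 between the controls, and the mean of all HK2 probe sets by -0.07, as HK1 did. The PFKP to PFKL ratio was 1.31 ± 0.03 and 3.16 ± 0.15, a 3.59-fold shift towards PFKP (exact p = 0.1). PFKFB4 to PFKFB3 went from 1.88 ± 0.34 to -0.42 ± 0.27 and ALDOC to ALDOA from -1.54 ± 0.07 to -2.54 ± 0.04. LDHB to LDHA moved least, from -0.36 ± 0.01 to -0.24 ± 0.02. The control arrays of the lines did not overlap for any pair. Of single genes 82.4% were apart between these arrays, and the share over all gene pairs was not computed. SLC2A3 to SLC2A1 (-2.51) counts for nothing here, since SLC2A3 passed the filter only through OCI-Ly7.

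**Figure D2:**
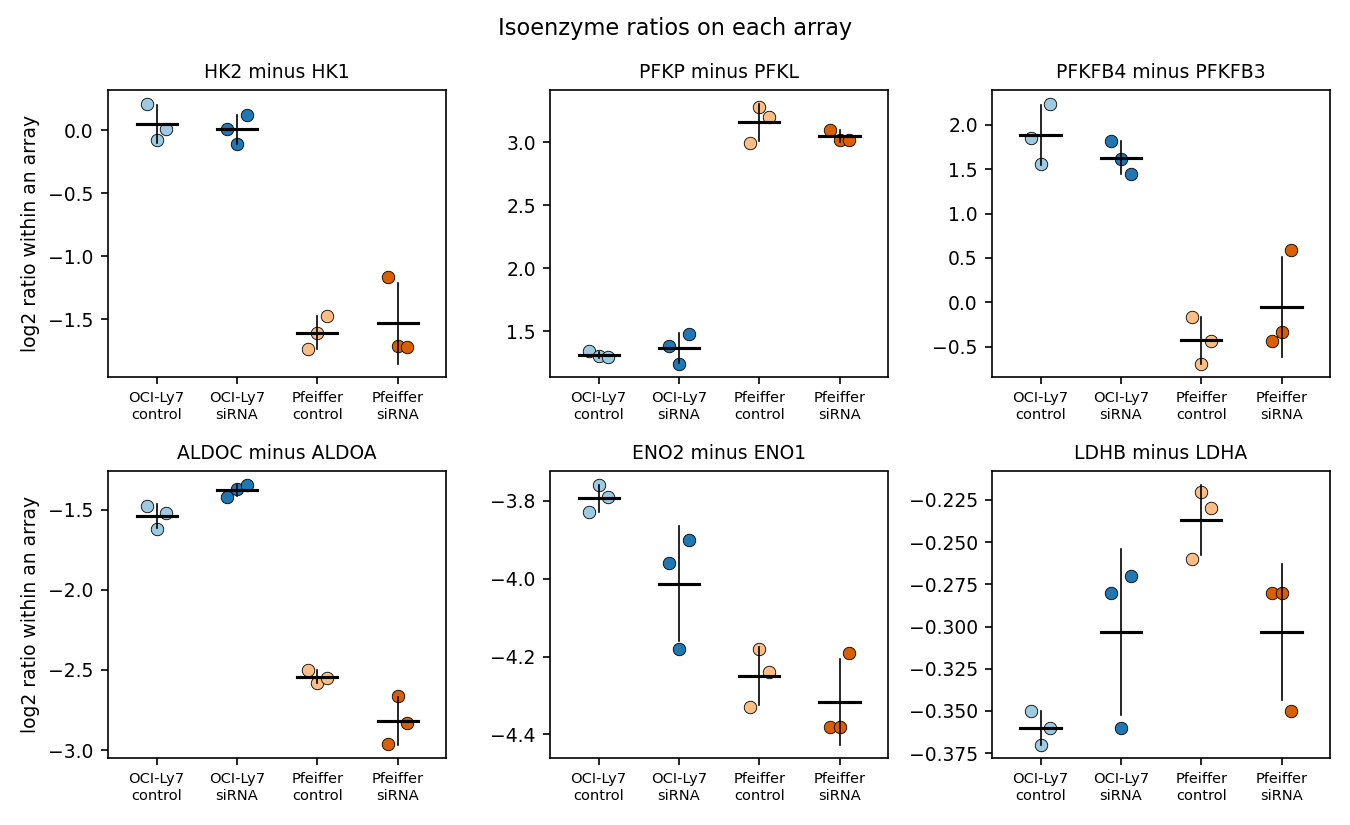
Log2 ratio of 2 isoenzymes within each array, for 6 of the 10 pairs, in the 4 groups (points are arrays, thick lines means, thin lines SD, n = 3). The control arrays of the lines are apart in every panel, by -1.65 for HK2 to HK1 and 0.13 for LDHB to LDHA, and the zero point of a ratio has no meaning because probe sets differ in brightness. Each gene is shown by its brightest probe set, and the dimmer HK2 probe sets went the other way between controls.

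After BCL6 siRNA all shifts lay between -0.49 (SLC2A3 to SLC2A1 in OCI-Ly7) and 0.37. In 8 of the 20 comparisons the arrays of both groups were apart. Of single genes 22.9% were apart in OCI-Ly7 and 33% in Pfeiffer. The share over all gene pairs was not computed, so the 8 are not read as a trait of isoenzymes. In OCI-Ly7 HK2 to HK1 shifted by -0.04 (exact p = 0.7) and in Pfeiffer by 0.07 (exact p = 0.8). ALDOC to ALDOA shifted by 0.16 in OCI-Ly7 and by -0.27 in Pfeiffer, with the groups apart in either line (exact p = 0.1 each). BNIP3L to BNIP3 shifted by -0.14 and -0.31, also with no overlap (exact p = 0.1 each).

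BCL6 siRNA in OCI-Ly7 was followed by no call in the set. Of the 36 genes tested limma called 0, against 2.68% of all genes (1.69% higher and 0.991% lower). Arrays of both groups were apart for 3 genes that were higher and 8 that were lower, against 13.4% and 9.42% of all genes and 22.9% in either direction. At an unadjusted p under 0.05 there were 5: ALDOC higher and ENO2, HK1, HK2 and NDRG1 lower. Their changes were 0.19, -0.20, -0.19, -0.23 and -0.33, with adjusted p of 0.22 to 0.301. The largest of their unadjusted p-values (limma, 0.0413 for HK2) ranked 1357 among the 9888 genes tested. Such p-values were thus common outside the set too. The median change was 0.01, beside 0.015 over all genes tested. The changes ran from -0.34 for SLC2A3 to 0.19 for ALDOC. For 33 of the 36 genes the 95% confidence interval lay within 0.5 of 0 on the log2 scale. The exceptions were SLC2A3 (-1 to 0.31), ADM (-0.70 to 0.14) and NDRG1 (-0.61 to -0.05). HIF1A read 12.84, 12.78 and 12.87 after siRNA, within the range of its controls, and LDHA changed by 0.01 (interval -0.14 to 0.16).

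BCL6 siRNA in Pfeiffer was followed by a rise of 6 genes of the set, and 0 fell. They were PFKFB4, PGK1, ENO1, PDK1, BNIP3 and NDRG1. The share called (16.7%) is close to that of all genes (16.2%), of which 7.9% rose and 8.31% fell. The median change of the 36 was 0.12, beside 0 over all genes tested, and 27 of the 36 changes were above 0, against 50% of all genes. With quantile normalization the median of the 36 was 0.07, and again 6 genes were called higher and 0 lower. At an unadjusted p under 0.05, 14 were higher and 1 (PGD) lower. The largest of these p-values (limma, 0.0441 for TPI1) ranked 2773 among the 9888 genes tested. Many genes outside the set thus passed too. The share of all genes at this threshold was not computed, so nothing is read from the count of 15. Of the 6, PFKFB4 alone changed by at least 1.5-fold. Arrays did not overlap for 10 genes that were higher and 1 that was lower, against 16% and 16.9% of all genes and 33% in either direction. In the same comparison 6 of the 7 B cell markers fell (median of the 7 -0.53), while no epithelial or T cell marker tested was called; the part of this in the rise of the 6 genes was not tested.

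PFKFB4 read 9.54, 9.47 and 9.53 in Pfeiffer controls and 10.04, 10.26 and 10.53 with BCL6 siRNA. It rose 1.7-fold (0.76 ± 0.12 SE; limma, adjusted p = 0.000387), yet all siRNA arrays stayed below the OCI-Ly7 controls, whose lowest was 12.21. Its dimmer second probe set stood at 0.49 and was uncalled. PDK1 went from 10.61, 10.51 and 10.35 to 10.74, 10.91 and 10.77 (0.32 ± 0.07, adjusted p = 0.00533), also with no overlap. Its other probe sets stood at 0.23 and 0.27, both uncalled, and the mean of the 3 was 0.27 (adjusted p = 0.0819).

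PGK1 read 14.62, 14.60 and 14.60 on control and 14.88, 14.86 and 14.84 on siRNA arrays (0.25 ± 0.06 SE; limma, adjusted p = 0.0122). The groups are tight and apart, and 4 of 6 PGK1 probe sets were called higher. ENO1 went from 14.96, 14.95 and 15.04 to 15.23, 15.14 and 15.20 (0.20 ± 0.06, adjusted p = 0.0242), with 3 of 4 probe sets called higher. These are rises of 1.19-fold and 1.15-fold, small beside that of PFKFB4.

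BNIP3 read 13.31, 13.28 and 13.26 on control and 13.62, 13.53 and 13.39 on siRNA arrays (0.23 ± 0.06 SE; limma, adjusted p = 0.0184), and both of its probe sets were called higher. BNIP3L, its relative, went from 11.86, 11.86 and 11.94 to 11.82, 11.85 and 11.75 (-0.08, adjusted p = 0.331). NDRG1, measured by 1 probe set, read 9.15, 8.91 and 9.28 on control and 9.50, 9.75 and 9.45 on siRNA arrays (0.46 ± 0.13, adjusted p = 0.0278). Its siRNA mean of 9.57 came near the OCI-Ly7 control mean of 9.66.

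**Figure D3:**
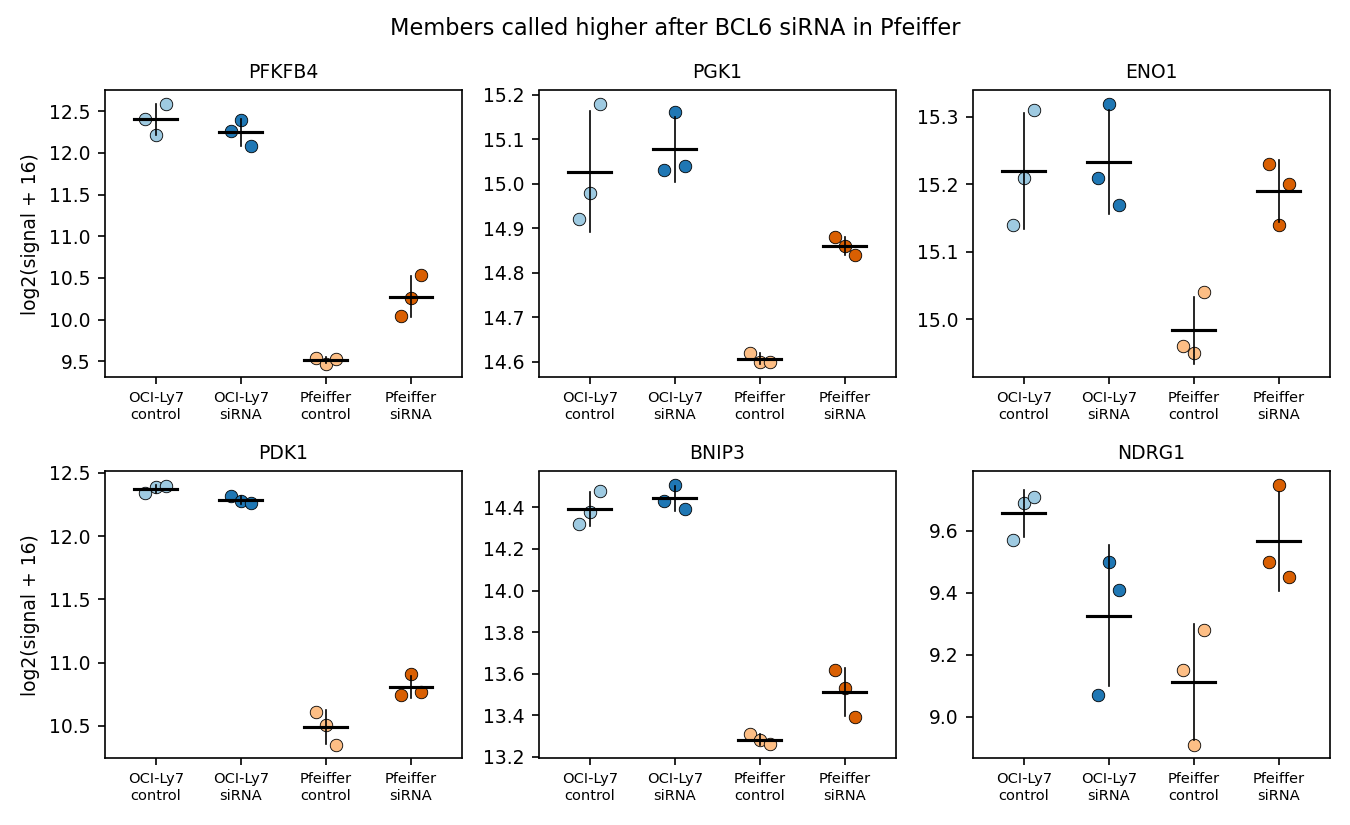
Level of the 6 genes called higher after BCL6 siRNA in Pfeiffer, in log2(signal + 16), on each array of the 4 groups (points are arrays, thick lines means, thin lines SD, n = 3). In Pfeiffer the siRNA arrays lie above the control arrays in every panel, for PFKFB4 at 10.04 to 10.53 against 9.47 to 9.54; each panel has its own scale, which does not start at 0.

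Some of these calls rest on few arrays. The calls of PFKFB4, PGK1 and PDK1 stood without each of the 12 arrays in turn. BNIP3 lost its call without Pfeiffer control replicate 2 or 3 or siRNA replicate 1 or 2 (adjusted p up to 0.0866). ENO1 lost it without control replicate 1 or 2 or siRNA replicate 1 or 3 (up to 0.0882), and NDRG1 without control replicate 1 or 2 or siRNA replicate 2 (up to 0.119). The count of 6 became 3 without Pfeiffer control replicate 2. Without Pfeiffer siRNA replicate 3, the array apart in its GAPDH ratio, 8 rose and 1 fell: ADM (0.58), PFKFB3 (0.59) and KDM3A (0.20) joined the rises, ENO1 left them and TKT fell (-0.21). On that array DDIT4 read 11.94, against 12.77 and 12.78 on the other siRNA arrays.

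The other genes of the set in Pfeiffer were uncalled. GAPDH stood at 0.16 (interval -0.01 to 0.34, adjusted p = 0.196), and its 5 other probe sets, 3 of them controls of the array, stood at 0.15 to 0.21, all uncalled. LDHA (0.18, adjusted p = 0.0878) and TALDO1 (0.18, adjusted p = 0.0652) had siRNA arrays above all control arrays. With quantile normalization LDHA stood at 0.04 and GAPDH at 0.02, and TALDO1 at 0.17. HK2 (0.27; limma, adjusted p = 0.0878) had siRNA arrays above its control arrays too, but narrowly. Its highest control and lowest siRNA value both round to 9.71. TPI1 stood at 0.12 (adjusted p = 0.157), while its second probe set was called higher in a fit that held these probe sets too (0.26, adjusted p = 0.0155). TKT stood at -0.12 (adjusted p = 0.286), while its second probe set was called lower (-0.25, adjusted p = 0.0358). HIF1A (0.09, interval -0.05 to 0.23), EGLN1 (-0.02, interval -0.16 to 0.12), SLC2A1 (0.01, interval -0.25 to 0.27) and VEGFA (0.08, interval -0.08 to 0.24) were uncalled. EGLN3 read 4.95, 5.94 and 5.66 on control and 5.66, 6.09 and 6.13 on siRNA arrays and was not tested.

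**Figure D4:**
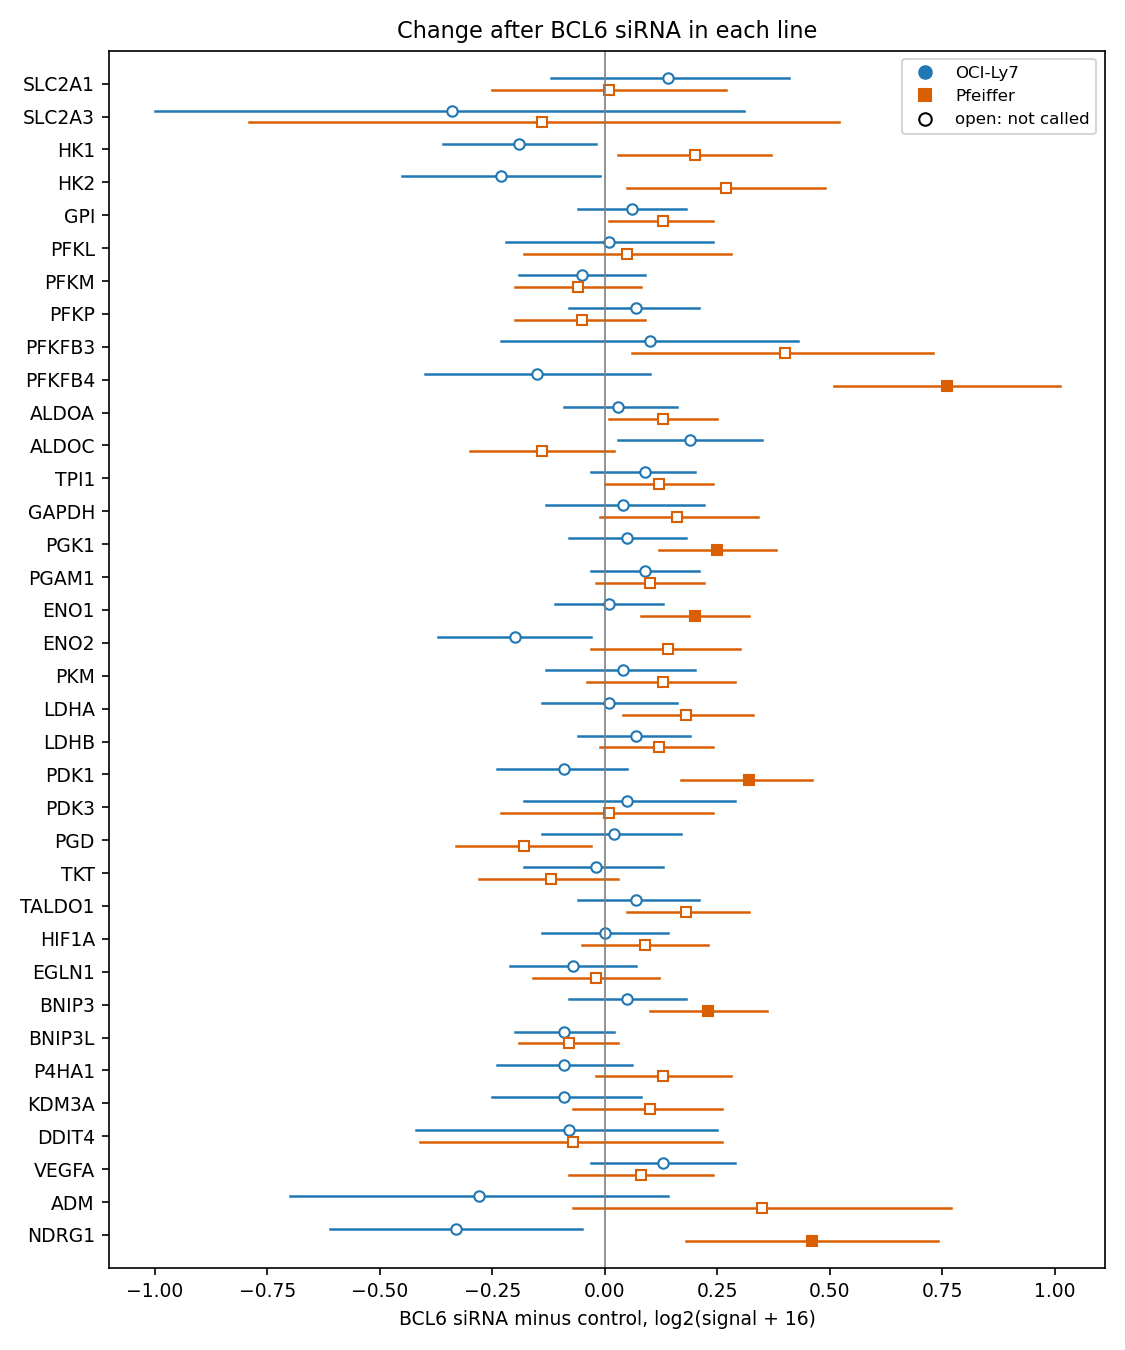
Change after BCL6 siRNA for each of the 36 genes tested, siRNA minus control in log2(signal + 16), in OCI-Ly7 (circles) and Pfeiffer (squares), with 95% confidence intervals from limma (3 arrays per group). Filled symbols are calls: 0 in OCI-Ly7 and 6 in Pfeiffer, where PFKFB4 reached 0.76.

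The change after siRNA differed between the lines for 5 genes of the set, all more positive in Pfeiffer. Limma called 13.9% of the 36 for this difference, against 8.8% of all genes, of which 3.74% were more positive and 5.06% more negative in Pfeiffer. BCL6 itself fell further in Pfeiffer than in OCI-Ly7 (-0.54 ± 0.11 SE; limma, adjusted p = 0.00496). The control titles differ as well, NTsiRNA in OCI-Ly7 and NTshRNA in Pfeiffer. The part of either in these calls was not tested. PFKFB4 differed by 0.92 ± 0.17 (SE; adjusted p = 0.00274), from -0.15 in OCI-Ly7 to 0.76 in Pfeiffer. NDRG1 differed by 0.78 ± 0.19 (adjusted p = 0.016), from -0.33 to 0.46, and PDK1 by 0.41 ± 0.10 (adjusted p = 0.0154), from -0.09 to 0.32. These 3 stood without each array in turn, but PFKFB4 (adjusted p = 0.111) and PDK1 (adjusted p = 0.25) lost the call with the mean of their probe sets. HK2 (0.50, adjusted p = 0.0446) and HK1 (0.39, adjusted p = 0.0418) passed narrowly. HK1 lost this call without any single array but Pfeiffer siRNA replicate 1, with adjusted p up to 0.0915. HK2 lost it without any of 8 arrays (adjusted p up to 0.111), and the mean of its probe sets turned to -0.27. PGK1 (0.20, adjusted p = 0.174), ENO1 (0.19, adjusted p = 0.17) and BNIP3 (0.18, adjusted p = 0.219) were uncalled for the difference.

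The 6 genes that rose in Pfeiffer were all lower in Pfeiffer controls than in OCI-Ly7 controls, as were 22 of all 36 tested. The comparisons share the Pfeiffer control arrays, and a low reading of those arrays would move both values this way. Side by side, the control difference and the change after siRNA in Pfeiffer were -2.89 and 0.76 for PFKFB4, -1.89 and 0.32 for PDK1, -1.11 and 0.23 for BNIP3, -0.54 and 0.46 for NDRG1, -0.42 and 0.25 for PGK1 and -0.23 and 0.20 for ENO1. ADM had the largest control difference (-4.50), and after siRNA in Pfeiffer it read 8.44, 9.09 and 8.08, overlapping its controls (0.35, adjusted p = 0.264). PDK3 (-2.12), EGLN1 (-1.79) and BNIP3L (-1.68) changed by 0.01, -0.02 and -0.08 in Pfeiffer and were uncalled.

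Other genes of these pathways were taken from lists made by function, with earlier results of these data known. Among 33 other hypoxia responsive genes 22 were tested, and in Pfeiffer 7 rose and 2 fell after BCL6 siRNA (40.9% called, against 16.2% of all genes, of which 7.9% rose and 8.31% fell), with a median change of 0.10 beside 0. Without single arrays the rises numbered 5 to 9 and the falls 1 or 2. INSIG2, which retains sterol regulators in the endoplasmic reticulum, read 9.08, 8.98 and 9.19 on control and 10.00, 10.04 and 10.12 on siRNA arrays (0.97 ± 0.09 SE; limma, adjusted p = 2.96e-06). MXI1, an antagonist of MYC, went from 10.29, 10.40 and 10.47 to 11.07, 11.17 and 11.00 (0.69 ± 0.07, adjusted p = 6.44e-06). HILPDA, a lipid droplet protein, went from 11.86, 11.43 and 11.82 to 12.74, 13.32 and 12.47, a 2.2-fold rise (1.14 ± 0.16, adjusted p = 0.000198). In OCI-Ly7 0 of the 22 were called by limma, and 4 had an unadjusted p under 0.05. The difference between the lines was called by limma for 5 of the 22 (22.7%, against 8.8% of all genes), all more positive in Pfeiffer. Among these were INSIG2 (1.10), MXI1 (0.71) and HILPDA (1.47). They were named for their low p in Pfeiffer, and the difference holds that same change. A call was thus favoured beforehand, so no p-value is given and it is not taken as support.

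The remaining lists held few calls. Limma called 2.68% of all genes in OCI-Ly7 and 16.2% in Pfeiffer. In OCI-Ly7 it called 9.09% of the other glycolysis genes, which is 1 gene. In Pfeiffer it called 16.7% of the other pentose phosphate genes and 12.5% of the other HIF regulators, near the share of all genes. The share of all genes at an unadjusted p under 0.05 was not computed. Of 11 other glycolysis genes tested 1 fell in OCI-Ly7 and 0 were called in Pfeiffer, where limma gave 2 at an unadjusted p under 0.05. The gene that fell was FBP1, the gluconeogenic fructose bisphosphatase, from 13.25, 13.26 and 13.35 to 12.59, 12.73 and 12.81 (-0.57 ± 0.07 SE; limma, adjusted p = 0.000623). Its change in Pfeiffer was 0.01, and the lines differed by 0.58. That difference holds the OCI-Ly7 change for which FBP1 was named, so no p-value is given for it. Among 11 other genes of pyruvate and lactate metabolism limma called 0 in either line, and at an unadjusted p under 0.05 there was 1 in OCI-Ly7 and 0 in Pfeiffer. Among 6 other pentose phosphate genes PGLS, the lactonase before PGD, fell in Pfeiffer (-0.57 ± 0.06, adjusted p = 2.18e-05), but not when its probe sets were averaged (-0.29, adjusted p = 0.167). Among 8 other HIF regulators VHL, the ubiquitin ligase subunit that removes hydroxylated HIF, rose in Pfeiffer (0.65 ± 0.20, adjusted p = 0.0347). VHL read 8.06, 7.54 and 7.42 on control and 8.35, 8.09 and 8.52 on siRNA arrays. Its call was lost without Pfeiffer control replicate 2 or 3 or siRNA replicate 1 or 3 (adjusted p up to 0.13), and the mean of its probe sets was 0.13.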

How the data were processed

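The authors deposited log2 signals for 54675 probe sets on 12 arrays; per the submitters' processing notes they came from MAS5, with affy, and the versions are not given in the sources used here. On the linear scale every array had a mean of 500 after trimming 2% at either end, so no further scaling was applied. Because MAS5 takes off the mismatch signal, values of dim probe sets are noisy. Genes were named from the platform annotation of 2016. Control probe sets of the array were left out, so GAPDH is represented by an ordinary probe set. limma (lmFit, and eBayes with a trend) was fitted to log2(signal + 16) of 9888 genes on all arrays with 4 group means, leaving 8 residual degrees of freedom. Contrasts were siRNA minus control in each line, the difference of these, and Pfeiffer minus OCI-Ly7 controls. Two-sided p-values were adjusted over the 9888 genes (Benjamini-Hochberg). Arrays carry no read depth, and their number limits the precision. The members, lists and tests were chosen with earlier results of these data known. All members found are named; of other lists, at most 3 called genes with the lowest p. The alternatives run were pseudocounts of 1 and 64, quantile normalization, other filters, other choices of probe set, no trend, each line alone, a replicate block, each array left out, and, added after seeing the data, control probe sets allowed and a 1.5-fold minimum. The fit was tested on simulated data. Of changes of 0.4 it recovered 47.3% in OCI-Ly7 and 46.8% in Pfeiffer, and of changes of 0.7 it recovered 80.6% in either line. A gene left uncalled may thus still have changed by a small amount. R 4.3.3 and limma 3.58.1 were used.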

Additional observations from a re-analysis of the deposited data

Results flagged for a closer look

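For 5 genes of the set the change after BCL6 siRNA differed between the lines by limma's test of that difference, Pfeiffer minus OCI-Ly7. The values were 0.92 for PFKFB4, 0.78 for NDRG1, 0.50 for HK2, 0.41 for PDK1 and 0.39 for HK1. The fall of BCL6 itself differed between the lines too.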

How the results depend on the processing

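The count of genes of the set called in OCI-Ly7 was 0 under every alternative run, and the count between controls stayed within 1.5 times of 27 (23 to 27 on leaving out single arrays). In Pfeiffer it was 3 to 9 on leaving out single arrays and 1 with a 1.5-fold minimum. For the difference between the lines it was 3 to 6 on leaving out single arrays, 3 without a filter on dim genes, 3 without a trend, 2 with the mean of all probe sets and 2 with a 1.5-fold minimum. With a replicate block the difference had 3 calls instead of 5, and the counts within the lines stayed at 6 and 0. Same-numbered arrays deviated with correlations of -0.08 to 0.083, so the numbers were not taken as pairs. With the mean of all probe sets, the difference between controls turned to -0.33 for PKM and the difference between the lines to -0.27 for HK2. Of the called genes 2 of 6 in Pfeiffer, 1 of 5 for the difference and 20 of 27 between controls never lost their call. This leaves aside the 1.5-fold minimum and alternatives in which a gene was not tested. NDRG1, the 1 kept for the difference, was tested in 22 of 23 alternatives there. Between controls NDRG1 was tested in 21 of 22 and SLC2A3 in 20. Of the uncalled ones 7 of 30, 6 of 31 and 2 of 9 were called in at least 1 alternative, and in OCI-Ly7 0 of 36 were. The cause was not tested.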
